A study of Mus musculus with 17 samples.

Results

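The genes described here make up the fat-digesting side of the pancreatic acinar cell, together with a granule protein and 3 transcription factors of that cell. The set comprised the cofactor colipase (Clps), the lipases Pnlip, Pnliprp1, Pnliprp2 and Cel, the zymogen granule protein Zg16, and the regulators Bhlha15, Ptf1a and Rbpjl. Members were taken by name: a probe set was used where its only gene symbol in the platform's annotation was 1 of the 9 names. Of the 9 genes, 8 were measured, by 14 of the 45037 probe sets that were not controls, among 18193 genes with a probe set of 1 symbol. Pnlip, pancreatic triglyceride lipase, is the member with no such probe set in the annotation used here, and no level is given for it.

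The samples were pancreatic islets of C57BL/6 mice, kept for 0, 24 or 48 h in F12K medium with 10% fetal bovine serum and given no other treatment. Islets of 4 mice were pooled in each of 6 batches, and each pool was divided among the 3 times, so that arrays of 1 batch share their mice. Expression was measured on single-colour whole-genome arrays, with 5 arrays at 0 h, 6 at 24 h and 6 at 48 h, since batch 5 is without its 0 h array, which was not used here. All values are log2 levels, so that a difference of 1 stands for a doubling of signal. The question of the design is which transcripts change during culture after isolation. Islet identity was checked on the 13 measured endocrine markers (insulin, glucagon and others), whose mean log2 level lay between 10.86 and 11.55 on all arrays.

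Acinar cells surround the islets in the pancreas, make the digestive enzymes, and store them in zymogen granules until a meal. Lipases split dietary fat, and colipase anchors pancreatic lipase to fat droplets that are coated with bile salts. Ptf1a and Rbpjl are subunits of the PTF1 complex, which binds the promoters of acinar enzyme genes, whereas Bhlha15 (also called MIST1) directs the growth of the secretory apparatus in many kinds of secretory cell.

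The promoters of 4 members are shown. The levels of Pnliprp1, Pnliprp2 and Cel varied together from array to array, and Bhlha15 is the measured regulator with a call. Whether these sequences bear on the levels was not tested. The sequences are RefSeq's for GRCm38.p6, run 5′ to 3′ on the gene's strand, and span 250 bases before to 50 bases after the annotated start. Capitals mark the E-box (CANNTG) and the TC-box (TGGGAA or its reverse complement TTCCCA), the elements of the site that the PTF1 complex is known to bind, searched on both strands. The windows are chr19:58728637-58728936 on the plus strand for Pnliprp1, chr19:58759473-58759772 on the plus strand for Pnliprp2, chr2:28563354-28563653 on the minus strand for Cel and chr5:144190036-144190335 on the plus strand for Bhlha15.
Pnliprp1: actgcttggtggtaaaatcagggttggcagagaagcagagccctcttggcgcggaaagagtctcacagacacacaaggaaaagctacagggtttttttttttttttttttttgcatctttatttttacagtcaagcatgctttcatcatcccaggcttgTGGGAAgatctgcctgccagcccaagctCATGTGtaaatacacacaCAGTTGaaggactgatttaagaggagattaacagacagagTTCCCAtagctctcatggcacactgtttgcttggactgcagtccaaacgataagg
Pnliprp2: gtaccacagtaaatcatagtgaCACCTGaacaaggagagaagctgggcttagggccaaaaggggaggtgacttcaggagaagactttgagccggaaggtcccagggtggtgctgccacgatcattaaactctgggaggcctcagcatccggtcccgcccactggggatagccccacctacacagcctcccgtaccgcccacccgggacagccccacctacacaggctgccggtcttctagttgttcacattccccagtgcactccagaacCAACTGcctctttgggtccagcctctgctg
Cel: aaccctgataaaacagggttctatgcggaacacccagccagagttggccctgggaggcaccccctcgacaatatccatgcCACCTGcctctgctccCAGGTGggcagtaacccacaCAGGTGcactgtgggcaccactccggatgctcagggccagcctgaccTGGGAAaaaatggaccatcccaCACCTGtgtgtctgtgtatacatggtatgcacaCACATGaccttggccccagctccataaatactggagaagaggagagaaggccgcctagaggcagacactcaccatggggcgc
Bhlha15: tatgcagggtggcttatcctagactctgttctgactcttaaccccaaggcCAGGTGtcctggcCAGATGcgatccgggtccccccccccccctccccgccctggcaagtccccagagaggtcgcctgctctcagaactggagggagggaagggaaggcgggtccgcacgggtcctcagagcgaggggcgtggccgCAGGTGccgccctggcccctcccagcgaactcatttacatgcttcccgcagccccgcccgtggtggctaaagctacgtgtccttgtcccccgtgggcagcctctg
An E-box and a TC-box that did not overlap, and whose first bases lay within 40 bases of each other, were present in Pnliprp1 (28 bases apart at the closest), Cel (22 bases) and Rbpjl (11 bases), which is 3 of the 7 members with a promoter in the table. Over all 32851 promoters, 72.3% held an E-box, 25.6% a TC-box and 7.62% such a pair. The Pnliprp2 window held 2 E-boxes and the Bhlha15 window 3, with no TC-box in either. These are matches of letters and not measured binding. By the same annotation Pnlip (chr19:58670365-58681799), Pnliprp1 (chr19:58728887-58744169) and Pnliprp2 (chr19:58759723-58777534) lie near each other on chromosome 19, Cel at chr2:28555819-28563403, Ptf1a at chr2:19445663-19447501 and Rbpjl at chr2:164403081-164415448 on chromosome 2, Clps at chr17:28558210-28560766, Zg16 at chr7:127050156-127052675 and Bhlha15 at chr5:144190286-144194441.

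Some arrays stood apart in ways that bear on these genes. The mean log2 level of 6 acinar enzyme genes that are not members (Cpa1, Cpb1, Ctrb1, Cela2a, Cela3b and Pla2g1b) was 8.46 on the 0 h array of batch 4, against 5.25 to 6.60 on the other 0 h arrays. At 24 h it was 7.39 in batch 3 and 6.82 in batch 6, but 3.92 in batch 5 and between 5.23 and 5.81 in the rest. At 48 h it was 5.65 in batch 5 and between 3.29 and 3.96 in the rest. Of the 6 genes, Pla2g1b varied little, between 3.28 and 3.69 over all arrays, so this mean moved through the other enzymes. The 0 h array of batch 3 carried gut transcripts: all 15 measured markers of goblet cells and gut epithelium were highest there of all 17 arrays, and Fabp2, a fatty acid carrier of enterocytes, reached 10.18 against at most 3.13 elsewhere. The margin was narrow for Cdx1, Spink4 and Vil1 (2.99, 3.97 and 9.27 against at most 2.94, 3.90 and 9.15 elsewhere). Agr2 and Reg3g were dim even there, at 3.18 and 3.40. The part of acinar or gut tissue carried along with the islets was not tested for any result below, and in these bulk samples fewer acinar cells and less RNA per acinar cell cannot be told apart.

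Clps and Zg16 were the members that fell by 48 h of culture, while Clps and Bhlha15 fell by 24 h. Against 0 h, 2 of the 8 measured members passed as lower at 24 h, when 4.72% of all probe sets did, and 2 of 8 passed as lower at 48 h, when 3.80% of all probe sets did. No member passed as higher at either time, when 3.86% and 4.67% of all probe sets did. Between 48 h and 24 h, 0 members passed the limma test, when 0.266% of all probe sets passed as higher and 0.178% as lower, although 3 had an unadjusted p under 0.05 (Zg16, Bhlha15 and Cel). Where a gene has several probe sets, that of greatest mean level stands for it, and a pass is an adjusted p under 0.05 in limma's moderated test, adjusted over all probe sets. Counted by such probe sets, 1211 of 18193 genes passed as lower at 24 h against 0 h and 959 at 48 h. As higher, 990 passed at 24 h and 1174 at 48 h. With the 0 h arrays of batches 3 and 4 left out, a choice made after seeing the data, 2 members still passed at each time against 0 h, and 1 (Zg16, adjusted p = 0.0311) between 48 h and 24 h. The median log2 difference of all probe sets was -0.01 at both times against 0 h.

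**Figure D1:**
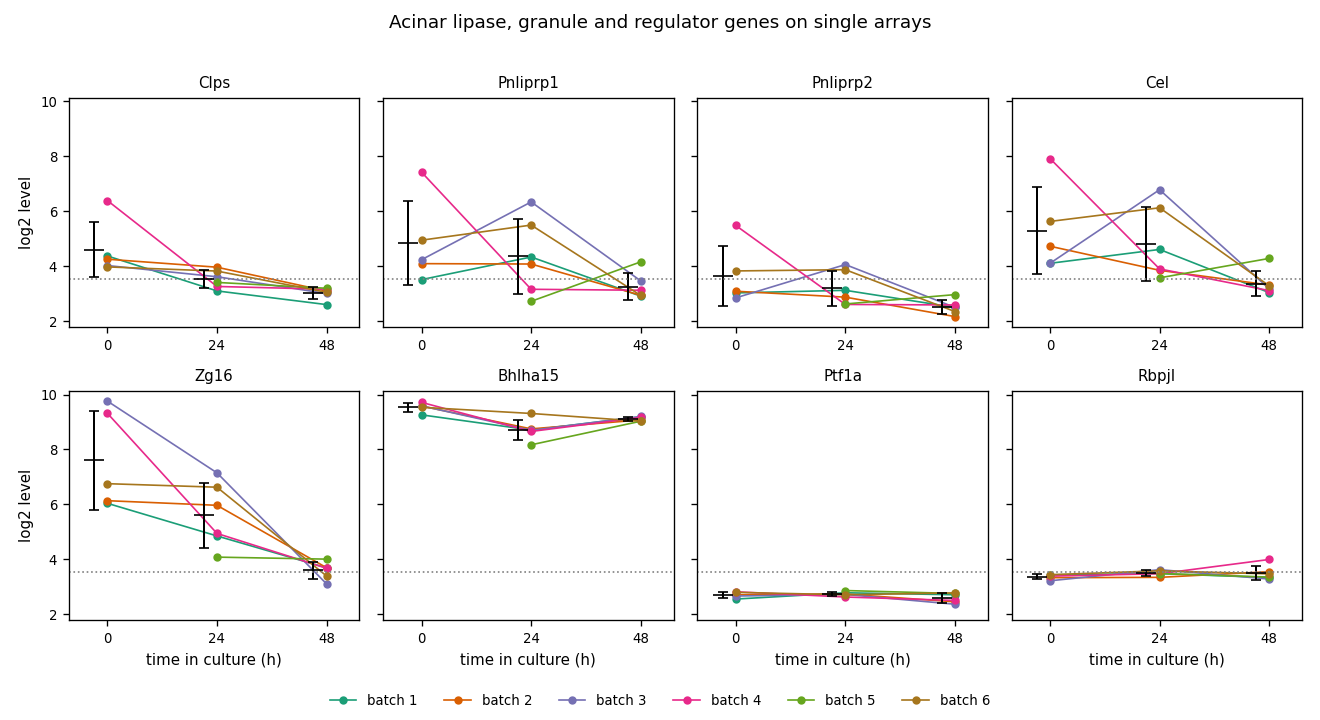
Log2 level of each measured member on every array, by time of culture (0, 24 and 48 h), with 1 panel per gene, 1 point per array, coloured lines that join the arrays of a batch, black bars for mean ± SD and a dotted line at the table's median of 3.52. Zg16 fell to between 3.11 and 4.01 at 48 h, Bhlha15 dipped at 24 h and lay between 9.03 and 9.20 at 48 h, and Ptf1a stayed under the dotted line on all arrays.

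Clps, the colipase gene, fell at both times. By its representative probe set its log2 level at 0 h was 4.38, 4.26, 4.03, 6.39 and 3.98 in batches 1, 2, 3, 4 and 6. At 24 h it was 3.10, 3.97, 3.62, 3.26, 3.41 and 3.83 in batches 1 to 6, and at 48 h it was 2.60, 3.10, 3.01, 3.16, 3.20 and 3.05. Every array at 24 h and at 48 h thus lay below every array at 0 h, though at 24 h by a narrow margin, a separation found in 3.44% of all probe sets at 24 h and 2.99% at 48 h on the lower side. The level was 3.53 ± 0.33 at 24 h (SD, n = 6) and 4.61 ± 1.01 at 0 h (SD, n = 5), a log2 difference of -1.07 ± 0.32 (SE, adjusted p = 0.0405). The difference had an adjusted p of 0.0543 with the batch as a block, and the call was also lost in 6 of 17 fits that each left out 1 array (the 0 h array of batch 1, the 24 h array of batch 1, 3, 4 or 5, or the 48 h array of batch 2), with adjusted p values up to 0.0865. Without the 0 h array of batch 4 it was -0.63, with an adjusted p of 0.0179. Within batches Clps was lower at 24 h than at 0 h in 5 of 5, with differences between -3.13 and -0.15.

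At 48 h Clps averaged 3.02 ± 0.22 (SD, n = 6), against 4.61 ± 1.01 at 0 h, a log2 difference of -1.58 ± 0.32 (SE, adjusted p = 0.00312). It passed in all 17 fits without 1 array, and was -1.14 without the 0 h array of batch 4. All 48 h arrays lay under the table's median of 3.52, below which signal was not separated from background. With those arrays raised to that median the fall was 2.12-fold, with all 0 h arrays kept, the high one of batch 4 among them. The second Clps probe set fell to 2.78 ± 0.57 at 24 h (SD, n = 6) and 2.26 ± 0.06 at 48 h (SD, n = 6), against 5.03 ± 1.38 at 0 h (SD, n = 5). Its log2 differences were -2.25 ± 0.43 at 24 h (SE, adjusted p = 0.00213) and -2.77 ± 0.43 at 48 h (SE, adjusted p = 0.000389), and both passed in all 17 fits without 1 array. All its arrays at 24 h and at 48 h were under the table's median, so that the gap between the times is not measured. With those arrays raised to that median the fall was 2.84-fold at either time, again with all 0 h arrays kept. Both probe sets therefore gave Clps the same direction, and at 24 h the second kept the call with the batch as a block (adjusted p = 0.00963).

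The 3 lipases Pnliprp1, Pnliprp2 and Cel did not pass against 0 h at either time, and their arrays scattered widely at 0 and 24 h. Cel encodes the bile salt-stimulated lipase, which splits cholesterol esters as well as fats. Its log2 level at 0 h was 4.11, 4.73, 4.11, 7.92 and 5.63 in batches 1, 2, 3, 4 and 6. At 24 h it was 4.61, 3.85, 6.79, 3.90, 3.58 and 6.13 in batches 1 to 6, and at 48 h it was 3.04, 3.32, 3.18, 3.11, 4.29 and 3.29. The 0 h array of batch 4 and the 24 h arrays of batches 3 and 6 were the high ones, which are also those with the most non-member acinar signal, and 48 h overlapped 0 h only through the array of batch 5. The log2 difference of Cel was -0.49 ± 0.64 at 24 h (SE, adjusted p = 0.760) and -1.93 ± 0.64 at 48 h (SE, adjusted p = 0.0711). Within batches, Cel was higher at 24 h than at 0 h in 3 of 5 (batches 1, 3 and 6) and lower in the other two, with differences from -4.02 in batch 4 to 2.68 in batch 3. It was lower at 48 h than at 0 h in 5 of 5 batches, with differences between -4.81 and -0.92.

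Without the 0 h array of batch 4, the Cel differences were 0.17 at 24 h and -1.27 at 48 h, so this array set the sign of the first. With the 24 h arrays of batches 3 and 6 left out, a choice made after seeing the data, the 48 h difference of Cel stayed at -1.93 but passed, with an adjusted p of 0.0279. Pnliprp1, a relative of pancreatic lipase, lay between 3.51 and 7.43 at 0 h (median 4.24), 2.72 and 6.34 at 24 h (median 4.21) and 2.91 and 4.16 at 48 h (median 3.04). Its log2 differences were -0.49 ± 0.64 at 24 h (SE, adjusted p = 0.760) and -1.59 ± 0.64 at 48 h (SE, adjusted p = 0.144), and 0.16 and -0.94 without the 0 h array of batch 4. Its extremes fell on the same arrays as those of Cel: the highest at each time was batch 4 at 0 h, batch 3 at 24 h and batch 5 at 48 h.

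Pnliprp2, known as a lipase of galactolipids as well as of fats, lay between 2.85 and 5.49 at 0 h (median 3.09), 2.61 and 4.06 at 24 h (median 3.00) and 2.17 and 2.97 at 48 h (median 2.50). Only 4 of 17 arrays were above the table's median for it, namely batches 4 and 6 at 0 h and batches 3 and 6 at 24 h. Its log2 difference at 48 h against 0 h was -1.14 ± 0.38 (SE, adjusted p = 0.0723), and -0.69 without the 0 h array of batch 4. As all 48 h arrays were under the table's median, most of this difference lies where signal was not separated from background. With dim 48 h arrays raised to that median and the 0 h arrays left as they were, it was -0.13. Treated the same way, the 48 h level was 3.14-fold lower than that at 0 h for Cel and 2.32-fold lower for Pnliprp1. The second Pnliprp2 probe set was above the median on 2 arrays, the 0 h array of batch 4 and the 24 h array of batch 3. Between 48 h and 24 h the log2 differences were -1.44 ± 0.61 for Cel, -1.10 ± 0.61 for Pnliprp1 and -0.68 ± 0.36 for Pnliprp2 (SE; adjusted p = 0.368, 0.510 and 0.496). All 3 lipases were lower at 48 h than at 24 h in 5 of 6 batches, and batch 5 was the exception each time.

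**Figure D2:**
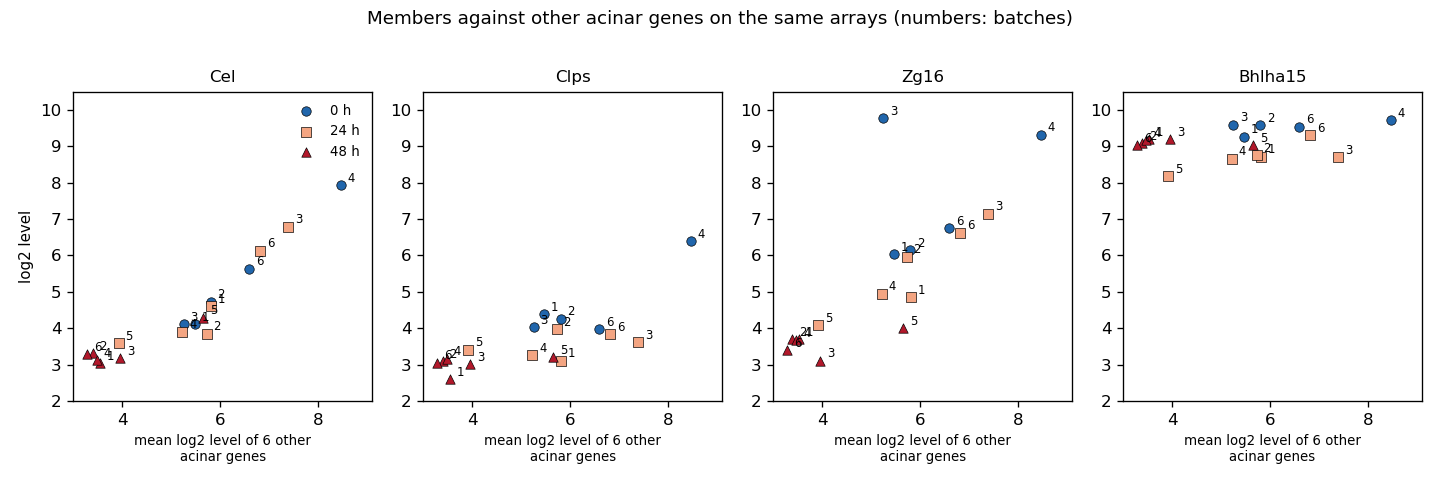
Log2 level of Cel, Clps, Zg16 and Bhlha15 (y axis, 1 panel each) against the mean log2 level of 6 acinar enzyme genes that are not members (x axis), with 1 point per array, numbered by batch and marked by time. Cel rises along the axis over the 17 arrays, Zg16 does so apart from the 0 h array of batch 3 at 9.76, Clps is highest on the 0 h array of batch 4 at 6.39, and Bhlha15 has a weaker relation over all arrays (r = 0.298) than among arrays of the same time (0.536).

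Across arrays the lipases went with the acinar enzymes. Over the 17 arrays, where arrays of a batch share their mice, the Pearson correlation with the mean of the 6 non-member acinar genes was 0.942 for Cel, 0.932 for Pnliprp1, 0.917 for Pnliprp2, 0.775 for Zg16 and 0.744 for Clps. After the mean of each time was taken off, it was 0.917 for Cel, 0.940 for Pnliprp1, 0.897 for Pnliprp2, 0.552 for Zg16 and 0.612 for Clps. The relation of the 3 lipases thus held among arrays of the same time. Without the 0 h array of batch 4, and with the time means left in, the correlation was between 0.909 and 0.922 for these lipases. It was 0.695 for Zg16 and 0.624 for Clps. It was not computed without that array after the time means were taken off. Bhlha15 had a correlation of 0.298 over all arrays, 0.112 without that array, and 0.536 after the mean of each time was taken off. With the mean of each time taken off, its correlations with Pnliprp1, Cel and Pnliprp2 were 0.576, 0.504 and 0.481. Among 11905 genes with a mean above the table's median, those most like the mean of the measured lipases and colipase were Cpa1 (r = 0.958 over 17 arrays), Ctrl (0.945), Cela2a (0.930), Prss2 (0.923), Cpb1 (0.919) and Cela3b (0.912), all of them genes of pancreatic proteases. After the mean of each time was taken off, the first 5 of these stayed the most alike (0.945 to 0.889), followed by A530047J11Rik (0.881). Those most like Clps alone were Rnase1, a pancreatic ribonuclease (0.934), Ckap2l, Ctrl, Syt17, A530047J11Rik and Lpcat1 (0.837), and with the mean of each time taken off, Tln2 (0.879), Rnase1, Syt17, A530047J11Rik, Ctrl and C1qtnf1 (0.774).

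Among the members, Zg16 had the largest log2 difference at 48 h against 0 h, by representative probe sets. It encodes a lectin-like protein that was found on zymogen granule membranes in the rat pancreas and is secreted by goblet cells of the mouse gut. By its representative probe set, of the kind marked _x_at, its log2 level at 0 h was 6.04, 6.14, 9.76, 9.32 and 6.75 in batches 1, 2, 3, 4 and 6. At 24 h it was 4.85, 5.97, 7.15, 4.94, 4.08 and 6.63 in batches 1 to 6, and at 48 h it was 3.69, 3.70, 3.11, 3.68, 4.01 and 3.40. The highest 48 h array lay below the lowest 24 h and 0 h arrays, while 24 h overlapped 0 h. Such a separation of 48 h from 0 h was found in 2.99% of all probe sets on the lower side. Zg16 averaged 3.60 ± 0.31 at 48 h (SD, n = 6), against 7.60 ± 1.80 at 0 h (SD, n = 5), a log2 difference of -4.01 ± 0.64 (SE, adjusted p = 0.000459). With dim arrays raised to the table's median the fall was 15.1-fold, with the high 0 h arrays of batches 3 and 4 kept. At 24 h it averaged 5.60 ± 1.17 (SD, n = 6), and the difference from 0 h was -2.00 ± 0.64 (SE, adjusted p = 0.0618).

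The 48 h fall of Zg16 passed in all 17 fits without 1 array. The 0 h arrays of batch 3, which carried gut transcripts, and batch 4, which carried the most acinar signal, were the highest. Without the 0 h array of batch 3 the difference was -3.47 (adjusted p = 0.00113), without that of batch 4 it was -3.58 (adjusted p = 0.00177), and without both it was -2.71 (adjusted p = 0.00288). Within batches Zg16 was lower at 24 h than at 0 h in 5 of 5 and lower at 48 h than at 24 h in 6 of 6, though the difference in batch 5 was -0.07. Between 48 h and 24 h the log2 difference was -2.01 ± 0.61 (SE, adjusted p = 0.172), with no overlap, as in 0.486% of all probe sets on the lower side. The correlation of Zg16 with the non-member acinar mean was 0.932 without the 0 h array of batch 3 and 0.695 without that of batch 4. With the mean of the gut markers it was 0.567 over the 17 arrays. The genes most like Zg16 over the 17 arrays were Pxn (r = 0.901), Mast1, Gnal, Cks2, Cd74 and Hjv (0.885). After the mean of each time was taken off, they were Fam234a (0.862), Reg1, Cks2, Zfp398, Itch and Rims3 (0.812).

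The 3 Zg16 probe sets all had a lower mean at 48 h than at 0 h. The endings _x_at and _s_at mark probe sets that may match other transcripts too. The _s_at probe set averaged 2.64 ± 0.16 at 48 h (SD, n = 6), against 4.92 ± 1.73 at 0 h (SD, n = 5), a difference of -2.27 ± 0.54 (SE, adjusted p = 0.0113), which was -1.04 (adjusted p = 0.0604) without the 0 h arrays of batches 3 and 4. All its 48 h arrays were under the table's median, and the fall was 2.63-fold with those arrays raised to it and all 0 h arrays kept. The third, with neither ending, averaged 3.43 ± 0.13 at 48 h (SD, n = 6) and 4.10 ± 0.67 at 0 h (SD, n = 5), a difference of -0.67 ± 0.21 (SE, adjusted p = 0.0543). All 3 were highest of all 17 arrays on the 0 h array of batch 3.

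**Figure D3:**
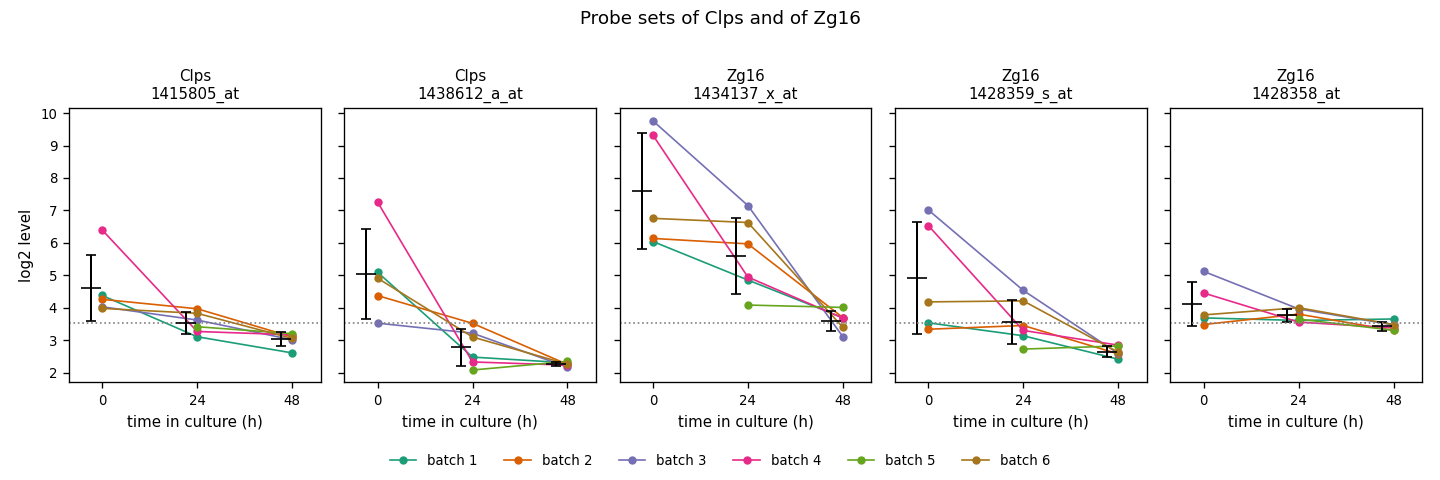
Log2 level by time in culture (h) for the 2 probe sets of Clps and the 3 of Zg16, 1 panel each, with 1 point per array, coloured lines that join the arrays of a batch, black bars for mean ± SD and a dotted line at the table's median of 3.52. Both Clps probe sets and all 3 of Zg16 had a lower mean at 48 h than at 0 h.

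Bhlha15, the basic helix-loop-helix regulator, dipped at 24 h, and its mean at 48 h lay between those of the other times. By its representative probe set its log2 level at 0 h was 9.26, 9.58, 9.59, 9.72 and 9.54 in batches 1, 2, 3, 4 and 6. At 24 h it was 8.71, 8.75, 8.70, 8.66, 8.17 and 9.31 in batches 1 to 6, and at 48 h it was 9.19, 9.08, 9.20, 9.17, 9.03 and 9.03. At 24 h only the array of batch 6 reached the range of 0 h. The 48 h arrays lay close together, all below the 0 h arrays, a separation found in 2.99% of all probe sets on the lower side. It averaged 8.72 ± 0.36 at 24 h (SD, n = 6), against 9.54 ± 0.17 at 0 h (SD, n = 5), a log2 difference of -0.82 ± 0.13 (SE, adjusted p = 0.000461), a 1.77-fold fall. That call held in all 17 fits without 1 array, with differences between -0.94 and -0.71.

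At 48 h Bhlha15 averaged 9.12 ± 0.08 (SD, n = 6), a difference from 0 h of -0.42 ± 0.13 (SE) that missed the threshold (adjusted p = 0.0621) and passed without the 0 h array of batch 1 (0.0403), the 24 h array of batch 5 (0.0178) or that of batch 6 (0.0123). Within batches it was lower at 24 h than at 0 h in 5 of 5 (differences from -1.06 to -0.23) and lower at 48 h than at 0 h in 5 of 5 (-0.55 to -0.07). Set against 24 h, 5 of 6 batches had a higher level at 48 h, and batch 6 a lower one (-0.28). That difference, 0.40 ± 0.13 (SE), had an adjusted p of 0.204, and of 0.0320 without the 24 h array of batch 6, where it was 0.52. The second Bhlha15 probe set was under the table's median on 15 of 17 arrays. Its log2 differences were -0.05 at 24 h and -0.16 at 48 h against 0 h (limma adjusted p = 0.844 and 0.277). Between 48 h and 24 h its difference was -0.12 (limma adjusted p = 0.610). The dip and the partial rise of Bhlha15 thus rest on 1 probe set.

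Bhlha15 stood well above the table's median on every array, including the 24 h array of batch 5 and the 48 h arrays on which the acinar genes were near it. Plasma cells and gastric chief cells also make this factor. The mean of the 8 measured plasma and B cell markers lay between 3.23 and 3.58 at 0 h, 3.20 and 3.35 at 24 h and 3.17 and 3.36 at 48 h. On average 3 of 8 were above the table's median: Ighm (5.52 to 5.90 at 0 h), Mzb1 (3.76 to 3.92) and Sdc1 (3.73 to 4.11). Jchain, which joins secreted immunoglobulins, was between 2.39 and 3.69 at 0 h. The mean of the 8 gastric markers lay between 3.58 and 3.64 at 0 h, 3.60 and 3.86 at 24 h and 3.53 and 3.73 at 48 h. Of these 8, 2 were above the table's median on average: Tff1 (6.04 to 6.22 at 0 h) and Gkn2 (3.73 to 4.09). The pepsinogen gene Pgc was between 2.93 and 3.42 at 0 h. Endocrine markers were lower in part: set against 0 h, 6 of the 13 fell by 24 h and none was called higher, while the 48 h arrays gave 3 that fell with 1 that rose. Of all probe sets, 4.72% passed as lower at 24 h, and 3.80% as lower and 4.67% as higher at 48 h. The mean level of the endocrine markers lay between 11.28 and 11.55 on the 0 h arrays, 10.86 and 11.20 on the 24 h arrays, and 10.98 and 11.27 on the 48 h arrays. The part of any of these cells in the level of Bhlha15 was not tested. The genes most like Bhlha15 over the 17 arrays were Ficd, an enzyme of the endoplasmic reticulum that modifies the chaperone BiP (r = 0.934), Atp13a1 (0.915), Rab6a, a small GTPase of the Golgi (0.909), Cdcp1 (0.907), Fam20a (0.901) and Mir670hg (0.895). Of these, Ficd was also among the 6 most alike after the mean of each time was taken off (0.888), where the others were Capn15 (0.940), Mrpl47, Surf2, Txnl1 and Mpc1 (0.863).

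Ptf1a and Rbpjl, the tissue-restricted subunits of the PTF1 complex, were not separated from background. Ptf1a lay between 2.55 and 2.82 at 0 h, 2.63 and 2.86 at 24 h, and 2.37 and 2.78 at 48 h, under the table's median on 17 of 17 arrays. The representative Rbpjl probe set lay between 3.22 and 3.44 at 0 h, 3.34 and 3.62 at 24 h, and 3.28 and 3.99 at 48 h, under that median on 13 of 17 arrays. On the 0 h array of batch 4, where the enzymes were highest, Ptf1a was 2.82 and Rbpjl 3.39, within their ranges on the other arrays. By representative probe sets their log2 differences lay between -0.15 and 0.14, with limma's adjusted p values from 0.477 to 0.999. The second Rbpjl probe set was also under the median on 13 of 17 arrays. Its difference at 48 h against 0 h was 0.16 (adjusted p = 0.274), and it was higher in 5 of 5 batches. No change was thus detectable by the test at these levels. The genes most like Ptf1a over the 17 arrays were Dlk2 (r = 0.783), Sez6, Pou2f3, Gm3764, Cxcl14 and Pom121l12 (0.750), and those most like Rbpjl were Otp (0.841), Col5a1, Slc26a11, Gpn3, Cul3 and Ankib1 (0.697). With both members near background, these correlations describe the 17 arrays only.

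**Figure D4:**
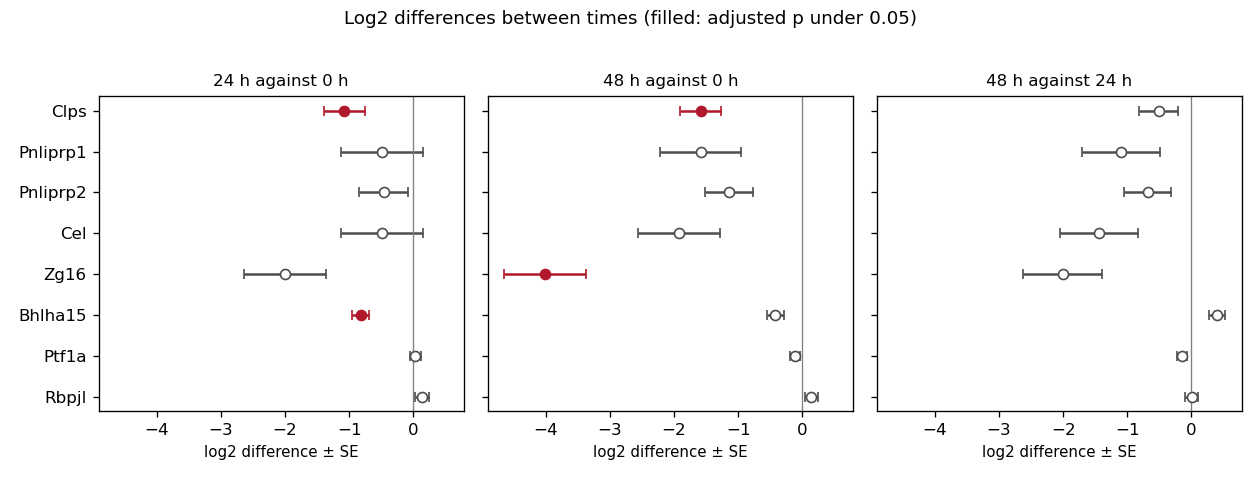
Log2 difference of each measured member at 24 h against 0 h, 48 h against 0 h and 48 h against 24 h (later minus earlier), with points for the limma estimate and bars for its standard error, and filled red points for members that passed. Clps and Bhlha15 passed at 24 h, Clps and Zg16 at 48 h, and no member between 48 h and 24 h.

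Some other products of the acinar cell fell by 48 h. Of 24 measured proteases, amylase and other secretory products, 0 passed at 24 h against 0 h (median log2 difference -0.22), and 7 fell and none rose at 48 h (median -0.93). Of all probe sets, 3.80% passed as lower at 48 h. The 6 with the largest falls were 2210010C04Rik, a trypsinogen-like gene (log2 difference -5.23), the carboxypeptidases Cpb1 (-4.16) and Cpa1 (-2.50), the elastases Cela2a (-3.50) and Cela3b (-2.80) and the chymotrypsin-like Ctrl (-2.27). With the batch as a block, the adjusted p was 0.0708 for Cela3b and 0.0661 for Cpa1, so these calls were lost; both were also lost in 5 of 17 fits without 1 array, with the highest adjusted p (0.0835 and 0.0793) without the 0 h array of batch 4. Whether the fall of Clps at 24 h differed from theirs was not tested.

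Among 17 genes of zymogen granule traffic, 1 rose (Stx3, 0.30) and 1 fell (Rab26, -0.31) at 24 h (median 0.01). At 48 h 1 rose (Snap23, 0.49), with a median of -0.06 over the list. Of all probe sets, 3.86% passed as higher and 4.72% as lower at 24 h, and 4.67% as higher and 3.80% as lower at 48 h. The counts of this list are near those shares. Rab26, a small GTPase of secretory granules and a target of Bhlha15 known from mouse acinar cells, averaged 3.80 at 24 h and 4.12 at 0 h. Its call was lost without the 0 h array of batch 6 (adjusted p = 0.0572). That of Snap23 was lost with the batch as a block (adjusted p = 0.104) and in 7 of 17 fits without 1 array. Of the other targets of Bhlha15 listed, the granule GTPase Rab3d averaged 9.33 at 24 h and 9.66 at 0 h (adjusted p = 0.293), and the other two were under the table's median on average, so 1 of 4 fell at 24 h (median -0.16) and 0 at 48 h (median -0.15).

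Of 19 further regulators of acinar and pancreatic cells, 1 rose and 3 fell at 24 h (median -0.10), and 2 rose and 4 fell at 48 h (median -0.13). The shares of all probe sets were 3.86% higher and 4.72% lower at 24 h, and 4.67% higher and 3.80% lower at 48 h. Id2, a helix-loop-helix inhibitor that lacks a DNA-binding region, rose at both times (1.94 at 24 h with adjusted p = 5.54e-07, and 1.76 at 48 h with adjusted p = 2.33e-06), and Id3 rose at 48 h (0.86). Those that fell at 24 h were Nkx6-1 (-0.75), Foxa2 (-0.48) and Pdx1 (-0.38), which beta cells also express, and the Pdx1 call was lost in 12 of 17 fits without 1 array. At 48 h they were Id1 (-0.61), Nkx6-1 (-0.40), Foxa2 (-0.40) and Xbp1 (-0.30), of which Foxa2 (adjusted p = 0.0648) and Xbp1 (adjusted p = 0.0741) were lost with the batch as a block. In fits without 1 array, the 48 h calls of Xbp1, Foxa2, Id1 and Nkx6-1 were lost in 13, 8, 7 and 2 of 17. Nr5a2, a nuclear receptor that acts with the PTF1 complex on acinar enzyme genes, averaged 4.60 at 24 h and 4.62 at 0 h (adjusted p = 0.946).

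Among listed lipases and lipid hydrolases that are not members, the acinar gene Pla2g1b included, only Mgll passed. Of 17 measured lipases and lipid hydrolases, 1 fell at 24 h and at 48 h, and none rose (medians -0.0015 and -0.01). Of all probe sets, 4.72% passed as lower at 24 h and 3.80% at 48 h. Mgll, monoacylglycerol lipase, had log2 differences of -2.00 ± 0.14 at 24 h (SE, adjusted p = 2.5e-08) and -2.20 ± 0.14 at 48 h (SE, adjusted p = 6.82e-09), and it passed in all 17 fits without 1 array at both times. Lpl, lipoprotein lipase, averaged 11.04 at 24 h and 11.02 at 0 h (adjusted p = 0.949).

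The study selected genes whose mean signal at 24 or 48 h differed more than 4-fold from that at 0 h. On the linear scale the ratio of means was under 0.25 for Zg16 at 24 h (0.181), and at 48 h for Zg16 (0.0352), Cel (0.154) and Pnliprp1 (0.202), while Clps was at 0.263. These ratios carry no test, and a mean of linear signals leans on its highest array. Without the 0 h array of batch 3 no member met the rule at 24 h. Without that of batch 4, only Zg16 met it at 48 h.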

How the data were processed

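The values are the authors' deposited log2 levels, 1 per probe set and array, made with RMA per the submitters' processing notes, with no version given there. The method subtracts background and quantile-normalizes the arrays, which removes a shift shared by most transcripts and compresses differences of dim genes. That the logarithm has base 2 was read off the values, which spanned 1.55 to 13.81. No detection calls were used, and the table's median of 3.52 served as the level below which signal was not separated from background.

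The table held 45101 probe sets, and 64 controls were left out. limma (version 3.58.1 in R 4.3.3) fitted 1 mean per time to all 17 arrays, with Benjamini-Hochberg adjustment over 45037 probe sets, and was tested on simulated data. The number of arrays limits the precision, and as mice were pooled, p-values measure the spread between pools. All 14 member probe sets matched RefSeq by Entrez ID. Where dim arrays were raised, only arrays of the lower time under the table's median were set to it. Arrays of the other time were left as they were. Such a fall is a difference of means that high 0 h arrays enlarge, and it is no lower limit. Motifs were searched in the 300-base promoter windows.

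For the within-batch differences, arrays were paired by the batch that the design text names. The limma fit behind the main calls and p-values had no batch term and treated arrays of the same batch as independent. The batch entered the test only in the alternative fits that name it. The correlation of deviations from the time means had a median of 0.00545 over 16 same-batch pairs (range -0.159 to 0.274). The members, lists and tests were chosen with earlier results of these data known. Genes named are all members, the 6 genes most like the lipase mean, Bhlha15, Ptf1a and Rbpjl (and, added later, Zg16 and Clps), and up to 6 passing genes of each list by size. Nr5a2, Rab3d, Lpl, Jchain, Ighm, Mzb1, Sdc1, Pgc, Tff1, Gkn2 and Fabp2 were added after their values were seen. Alternatives concerned the batch (fixed term, random block, incomplete batch left out), weights per array, a trended robust prior, a repeated quantile or a median normalization, a level filter, other probe set choices, fewer times in the fit and arrays left out.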

Additional observations from a re-analysis of the deposited data

Results flagged for a closer look

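In 6 of the 42 sets of member arrays examined (14 probe sets at 3 times), 1 array lay far from the rest of its time; chance gives about 1 such array in 20 sets. The representative Clps probe set was 6.39 on the 0 h array of batch 4, against at most 4.38 on the other 0 h arrays, and 2.60 on the 48 h array of batch 1, where the next lowest was 3.01. The second Pnliprp2 probe set was 4.75 on the 0 h array of batch 4, with the next at 2.84, and 2.76 on the 48 h array of batch 5, with the next at 2.26. Cel was 4.29 on that same 48 h array of batch 5, with the next at 3.32. The second Bhlha15 probe set was lowest on the 48 h array of batch 3, at 2.98, with the next at 3.26. The 0 h array of batch 4 and the 48 h array of batch 5 had the highest non-member acinar mean of their times (8.46 and 5.65).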

How the results depend on the processing

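The 2 member calls at 24 h against 0 h became 1 with the replicate block (batch as a fixed term), with complete batches, with a trend and robust prior and with the arrays of the times compared; each kept Bhlha15 (block: -0.76, adjusted p = 0.00182) and lost Clps (adjusted p = 0.0543, 0.0797, 0.0691 and 0.108). They became 3 (Zg16 added, adjusted p = 0.0370) with only probe sets above the table's median. At 48 h against 0 h the 2 calls became 3, with Bhlha15 added, with complete batches, array weights, a trend and robust prior, quantile normalization again, the arrays of the times compared and the mean of all probe sets of a gene. They became 4 with only probe sets above the table's median, which tests fewer genes, and 4 with the 24 h arrays of batches 3 and 6 left out, in both cases with Cel and Bhlha15 added. They became 1 without the _x_at and _s_at probe sets, where Zg16 rests on the probe set with neither ending (-0.67, adjusted p = 0.0567). Between 48 h and 24 h the 0 calls became 1 (Zg16) with the 0 h arrays of batches 3 and 4 left out. Leaving out 1 array gave 1 to 3, 2 to 3 and 0 to 1 member calls at 24 h against 0 h, at 48 h against 0 h and between 48 h and 24 h, and 3041 to 3869, 2862 to 4221 and 102 to 263 probe sets. The replicate block gave 3640, 3572 and 224 probe sets, against 3862, 3815 and 200, and array weights gave 321 between 48 h and 24 h. The study's 4-fold rule took 1 member at 24 h and 3 at 48 h on the linear scale, 0 and 1 by the difference of mean log2 values, and 0 to 1 and 1 to 4 without 1 array.

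Median centring moved the split of calls to 2603 higher and 1237 lower at 48 h against 0 h (2102 and 1713 otherwise) and 171 and 62 between 48 h and 24 h (120 and 80 otherwise), and quantile normalization again gave 108 and 126 there. No called member changed sign under any alternative run. Outside the fits that left out 1 array, 480 of the member values kept their side of the threshold, 14 passed newly and 7 no longer passed. Where a call was lost or gained, the cause was not tested. Levels under the table's median (Ptf1a, most Rbpjl and Pnliprp2 arrays) limit what these arrays can show for those genes.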
